A study of Mus musculus with 10 samples.

Results

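The interferon-stimulated genes described here are 38 genes that cells switch on after interferon signalling, sorted by role into type I antiviral genes (24), transcription factors of the response (5) and GTPases best known as targets of interferon-γ (9). They were listed by name and role, with earlier results of these data known, and a gene was tested where the array held a feature annotated with that gene symbol alone, through its feature with the highest mean over all arrays. This gave 31 of the 38 members: 22 of 24 type I genes, 5 of 5 transcription factors and 4 of 9 GTPases. Isg15, Irgm2, Igtp, Tgtp1, Gbp2 and Gbp6 lay only on features shared with other genes, and Ifi44 had no feature in the annotation used, so no value is given for these 7 genes. The 31 genes are a small part of the 19938 genes tested in the same way.

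The values come from the livers of 10 male C57BL/6J mice, each read on 1 Affymetrix Gene ST array. In the Phf2 group, 5 mice carried an adenovirus encoding Phf2, a histone demethylase, and in the GFP group 5 mice carried one encoding the fluorescent protein GFP. All were injected through the tail vein at 8 weeks of age, with the same viral dose, and the livers were taken 3 weeks later from fed mice. Both groups therefore carried an adenovirus, and no liver without virus is part of the comparison. Which promoter drives the adenoviral genes was not stated in the labels or methods. The comparison asks how liver expression differs when the virus carries Phf2 in place of GFP, and all values are on the log2 scale of RMA, a normalization that corrects background and brings arrays to a common distribution. A log2 fold change is the Phf2 mean minus the GFP mean, and a gene is called higher or lower where the adjusted p from limma is under 0.05.

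Type I interferons (the interferon-α family and interferon-β) act through a receptor that activates the kinases Jak1 and Tyk2. Stat2 and Irf9 then take part in a complex that binds a DNA element called ISRE, found near many antiviral genes. Interferon-γ, made mainly by T cells and NK cells, acts through its own receptor and a different element, GAS, and it induces the immunity-related GTPases (IRG family) and the guanylate-binding proteins (Gbp family), which attack the vacuoles of intracellular pathogens. In liver, hepatocytes and Kupffer cells, the resident macrophages, both answer to interferons.

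To show these elements in the genes themselves, windows from 250 bases before to 50 after each transcription start were taken from RefSeq (build GRCm38.p6), and 28 of the 38 members had at least 1 window. Those without a window were Dhx58, Gbp6, Iigp1, Mx1, Mx2, Oas2, Parp14, Rtp4, Usp18 and Zbp1. An ISRE core was searched as GAAA, any 2 bases and GAAA again, and a GAS core as TTCNNNGAA, on both strands, and matches of these patterns may overlap each other, as they do in Bst2. The 150 bases before the start are shown 5′ to 3′ for 3 type I genes that were called higher and for 3 GTPase genes that were not, with either core in capitals. Oas1a lies on the minus strand (chr5:120907526-120907675), as do Bst2 (chr8:71537473-71537622), Trim30a (chr7:104465194-104465343) and Irgm1 (chr11:48871421-48871570). Gbp3 (chr3:142559894-142560043) and Gbp7 (chr3:142530186-142530335) lie on the plus strand.
Oas1a: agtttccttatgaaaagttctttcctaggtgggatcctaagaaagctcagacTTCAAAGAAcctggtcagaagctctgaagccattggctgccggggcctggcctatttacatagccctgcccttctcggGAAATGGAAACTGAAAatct
Bst2: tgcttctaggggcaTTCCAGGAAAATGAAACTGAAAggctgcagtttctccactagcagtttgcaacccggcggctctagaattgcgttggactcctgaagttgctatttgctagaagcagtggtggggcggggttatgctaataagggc
Trim30a: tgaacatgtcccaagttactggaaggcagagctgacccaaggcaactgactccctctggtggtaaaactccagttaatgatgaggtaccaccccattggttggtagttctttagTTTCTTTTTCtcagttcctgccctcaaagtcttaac
Gbp3: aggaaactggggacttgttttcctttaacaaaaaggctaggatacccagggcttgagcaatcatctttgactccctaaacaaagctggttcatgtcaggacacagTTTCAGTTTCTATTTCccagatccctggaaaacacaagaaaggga
Gbp7: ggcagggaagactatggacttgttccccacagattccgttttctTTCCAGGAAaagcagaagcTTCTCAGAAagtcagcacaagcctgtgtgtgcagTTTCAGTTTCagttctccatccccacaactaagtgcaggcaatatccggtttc
Irgm1: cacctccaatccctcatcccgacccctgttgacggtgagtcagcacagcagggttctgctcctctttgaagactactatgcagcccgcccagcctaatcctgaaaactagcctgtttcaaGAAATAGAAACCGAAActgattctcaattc

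An ISRE core was present in 18 of the 28 members (64.3%), against 3.99% of the 27025 genes with a window in that table. A GAS core was present in 9 of 28 (32.1%), against 9.55% of all genes with a window. By class, the ISRE core was found in all 7 GTPase genes with a window and in 10 of 16 type I genes, whereas the GAS core was found in 4 of the 7 GTPase genes and in 3 of the 16 type I genes. Counted in bases from the start, the ISRE cores began at -20 and -14 in Oas1a, at -130 and -124 in Bst2, and at -36 in Trim30a, whose second start had a core beginning at 2. In Gbp3 they began at -45 and -39, in Irgm1 at -30 and -24, and in Gbp7 at -53, beside GAS cores at -106 and -87. Isg15, which encodes the ubiquitin-like modifier of the response and had no value of its own on the arrays, held 3 overlapping ISRE cores. Of the members called higher, 3 of 4 with a window held an ISRE core, and so did 10 of the 18 tested members with a window that were not called, so the core was found among called and uncalled members alike. Xaf1, the called member without an ISRE core, held no GAS core either. A GAS core was held by 2 of the 4 called members and by 4 of the 18 not called. A match is a run of letters and not a measured binding site.

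**Figure D1:**
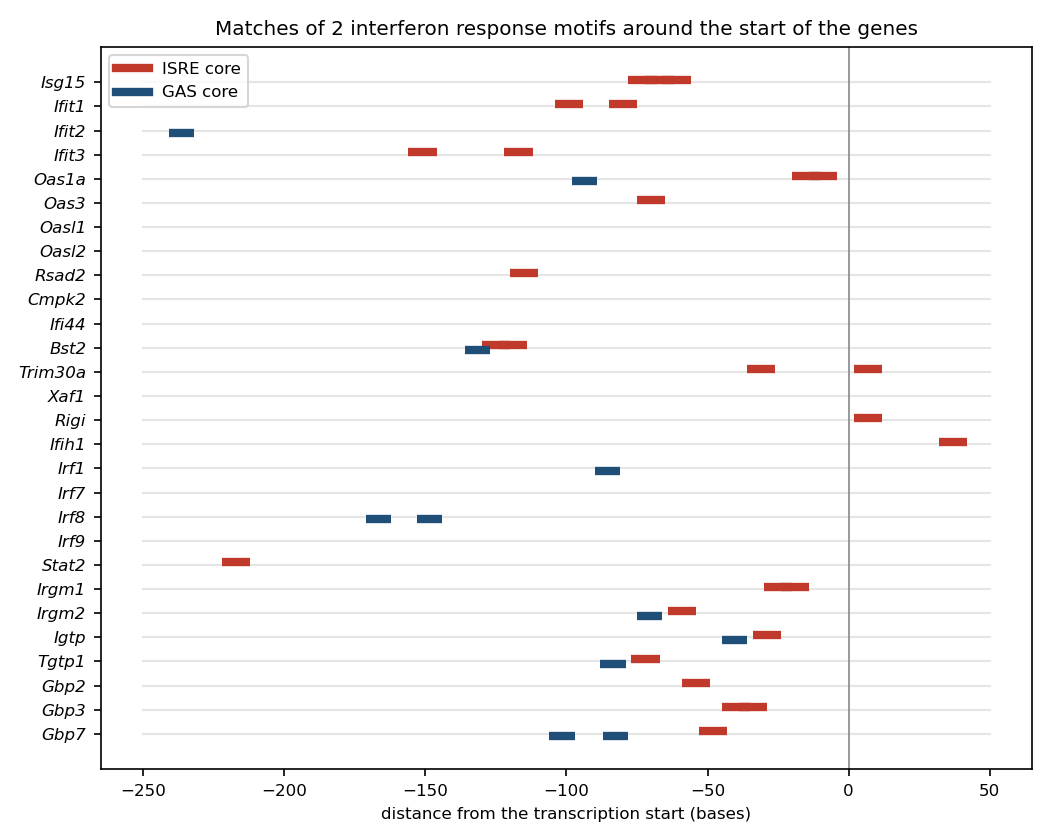
Each line is 1 gene with a promoter window, running from 250 bases before to 50 bases after the transcription start (horizontal axis, bases), with matches of the ISRE core in red and of the GAS core in blue, drawn over all windows of a gene at the distance from the start of each window. The 7 GTPase genes at the bottom each hold an ISRE core, and 4 of them also hold a GAS core.

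Before the comparison, the state of the arrays bears on every value that follows. Array medians lay between 5.06 and 5.18 and correlations between arrays between 0.9783 and 0.9932. The feature for Phf2 read 6.31, 6.27, 6.58, 6.45 and 6.37 in Phf2 livers, against 6.50, 6.54, 6.53, 6.32 and 6.34 in GFP livers (log2 fold change -0.05, standard error 0.08, adjusted p = 0.751 from limma). These groups overlap, so the feature for Phf2 does not check the labels, and Phf2 and GFP livers below are the livers so labelled. The Phf2 cDNA cloned in the study came from a human cell line, and whether this mouse feature reads the viral transcript was not tested. Of 7 hepatocyte markers tested, all lay at or above percentile 93.1 of the mean levels of all genes tested. In Phf2 livers 0 were called higher and 3 lower (Apoa1, Cps1 and Tat), against 5.43% and 4.24% of all genes. Without GFP replicate 3 only Apoa1 was called lower, and none of the 7 was without any 1 of Phf2 replicates 3 and 4 or GFP replicates 1, 2 and 4.

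One array stood apart for these genes. GFP replicate 3 was the highest of the 5 GFP arrays for 25 of the 31 members (80.6%), against 17.6% of all genes, and it lay above all 5 Phf2 arrays for 15 members (48.4%, against 21.1% of all genes). GFP replicate 1 was the lowest GFP array for 19 members (61.3%, against 18% of all genes). The same array had the highest mean level of exocrine pancreas genes, at 12.3, against 6.12 to 10.8 in Phf2 livers. The part of this in its low values was not tested. The SD between GFP livers was the larger for 25 of 31 members (80.6%), against 60.3% of all genes. That SD includes GFP replicate 3, so it is not a property of the other GFP livers. Without that array the GFP SD of Iigp1 fell from 0.61 to 0.12, below the 0.15 of Phf2 livers. In other members it stayed above that of Phf2 livers, as in Oas1a (0.37 against 0.09). GFP replicate 3 exceeded the mean of the other GFP arrays by a median of 1.44 in the GTPases, 0.57 in the type I genes and 0.52 in the transcription factors, against -0.03 over all genes. Among Phf2 livers, replicate 4 was the highest for 16 members and replicate 2 the lowest for 11. Members are therefore described below with all arrays and without GFP replicate 3, which leaves 5 Phf2 and 4 GFP livers.

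**Figure D2:**
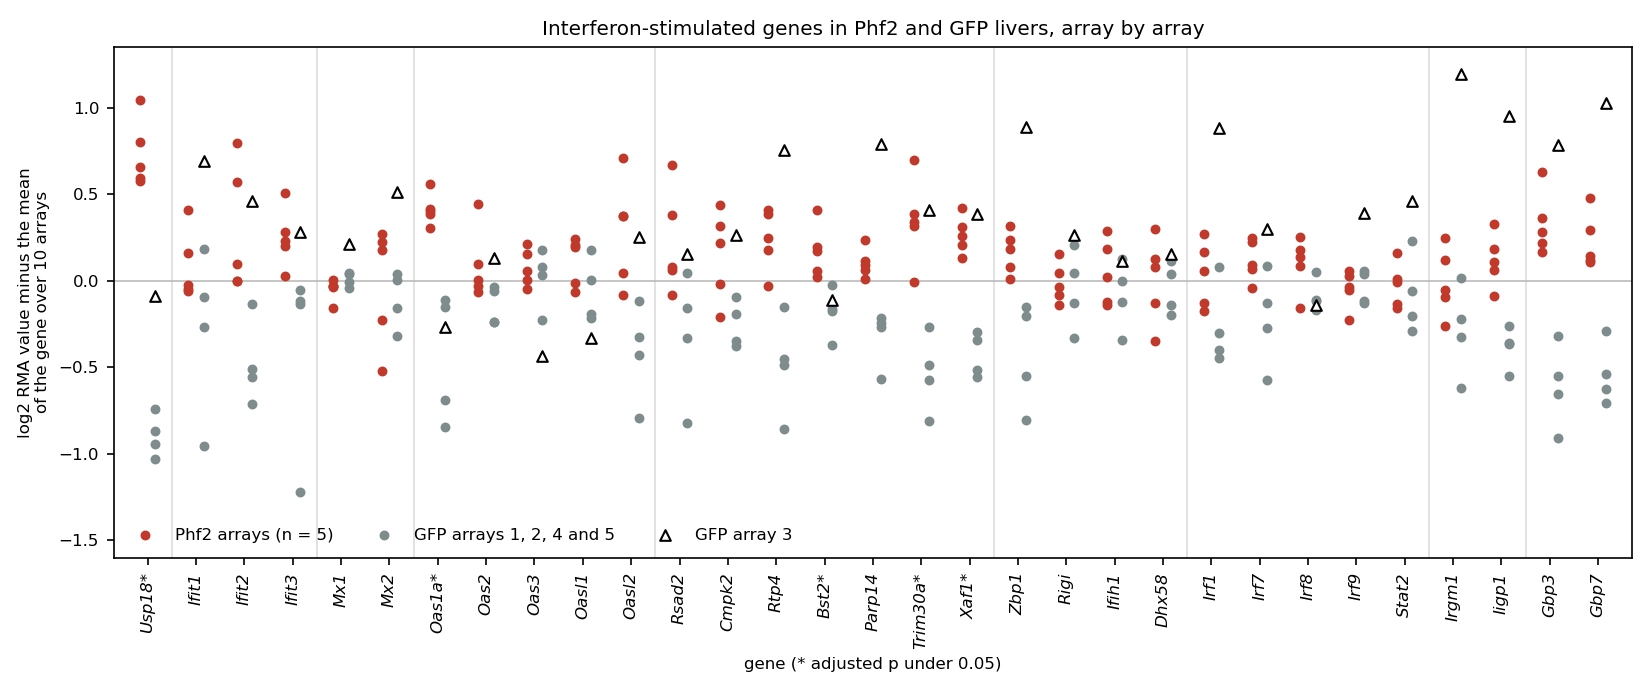
Each column is 1 tested member (horizontal axis, in order of role, vertical lines between roles), and each point is 1 array, drawn as its log2 RMA value minus the mean of the gene over the 10 arrays (vertical axis), with 5 Phf2 arrays in red, 4 GFP arrays in grey and GFP replicate 3 as an open triangle. GFP replicate 3 lies at the top of the GFP arrays for 25 of 31 members, and the Phf2 arrays lie above all GFP arrays in Usp18, Oas1a and Bst2.

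With all arrays, 5 of the 31 members were called higher in Phf2 livers and 0 were called lower. Over all genes, 5.43% were called higher and 4.24% lower, 9.67% in either direction. The higher members were Usp18, Oas1a, Trim30a, Xaf1 and Bst2, all of them type I genes, with log2 fold changes from 0.34 to 1.47. In 3 members, Usp18, Oas1a and Bst2, all 5 Phf2 livers lay above all 5 GFP livers, and in no member did all lie below, whereas such a separation was found upwards in 4.71% and downwards in 4.36% of all genes. The median log2 fold change was 0.31 in the 22 type I genes (19 of them positive), 0.35 in the 4 GTPases (3 positive) and 0.08 in the 5 transcription factors (3 positive), against -0.01 over all genes. In whole liver RNA, more cells of a type and more RNA per cell cannot be told apart.

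Without GFP replicate 3, 13 members were called higher and 0 lower, where 5.3% of all genes were called higher and 4% lower, 9.3% in either direction. The 5 genes above all stayed among the 13, joined by Ifit2, Oasl2, Rtp4, Parp14, Zbp1, Iigp1, Gbp3 and Gbp7, so the calls covered 10 of 22 type I genes, 3 of 4 GTPases and 0 of 5 transcription factors. All 5 Phf2 livers lay above the other 4 GFP livers in 14 members, these 13 and Ifit3, against 6.33% of all genes (5.9% in the other direction). GFP replicate 3 was the highest GFP array for 25 of the 31 members, so leaving it out raises their fold changes by construction, and the shares over all genes are no like background for the counts without it. The medians were then 0.41 in type I genes, 0.63 in GTPases and 0.19 in transcription factors. The members called higher numbered 13 without GFP replicate 3, 5 without Phf2 replicate 5, 4 without Phf2 replicate 1 and 3 without GFP replicate 5. They numbered 2, Usp18 and Oas1a, without any 1 of Phf2 replicates 2, 3 and 4 or GFP replicates 1, 2 and 4. At the study's thresholds, a change of at least 1.5-fold with an unadjusted p under 0.05, 4 members were higher (Usp18, Oas1a, Trim30a and Gbp3) and 0 lower, against 2.38% and 1.16% of all genes. The p here is that of limma, whereas the study used an analysis of variance with Tukey tests, so these are not the study's own calls. The difference between the classes was not tested.

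**Figure D3:**
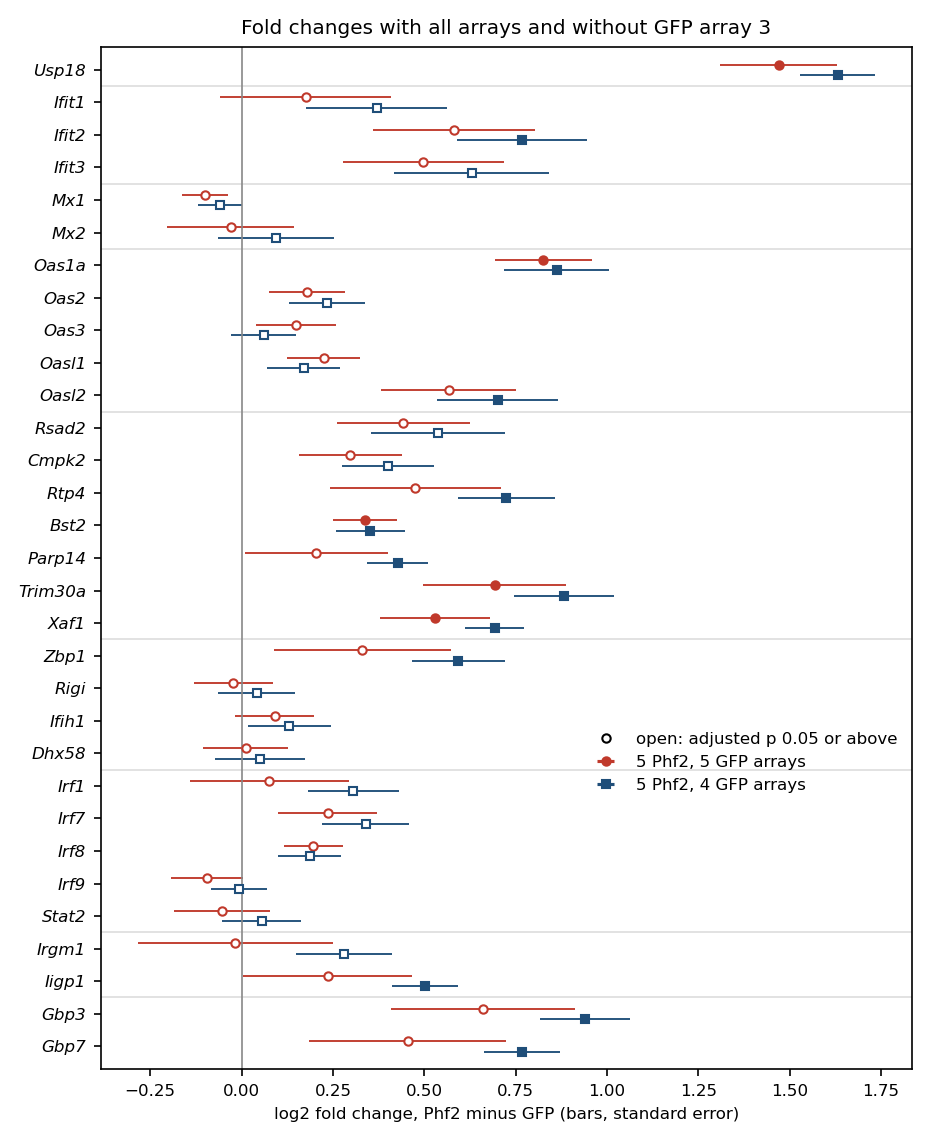
The log2 fold change of each tested member, Phf2 minus GFP (horizontal axis, bars for the standard error), with all arrays (red circles) and without GFP replicate 3 (blue squares), filled where the adjusted p from limma was under 0.05. Filled red circles mark 5 members and filled blue squares 13, and the squares lie to the right of their circles in all members but Oas3, Oasl1 and Irf8.

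Usp18, a protease that removes Isg15 from proteins and restrains signalling at the type I interferon receptor, had a log2 fold change larger than that of any other tested member. It read 8.05, 7.82, 7.91, 8.29 and 7.84 in Phf2 livers, against 6.22, 6.38, 7.16, 6.30 and 6.50 in GFP livers. Every Phf2 liver lay above every GFP liver, and GFP replicate 3, at 7.16, was the closest of the GFP livers to the Phf2 group. The mean was 7.98 ± 0.19 in Phf2 livers and 6.51 ± 0.38 in GFP livers (SD, n = 5 each), a log2 fold change of 1.47 or 2.77-fold (standard error 0.16, adjusted p = 0.000128 from limma). Without GFP replicate 3 it was 1.63 (standard error 0.10, adjusted p = 7.86e-06), and the gene was called under every alternative and every leave-out.

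The Oas and Oasl genes encode oligoadenylate synthetases and their relatives, and the active synthetases answer double-stranded RNA by activating RNase L. Oas1a read 6.22, 6.12, 6.38, 6.21 and 6.23 in Phf2 livers, against 4.98, 5.66, 5.55, 5.13 and 5.71 in GFP livers. The Phf2 livers were close together (SD 0.09) and all lay above the GFP livers, which were spread more widely (SD 0.33). On the log2 scale the fold change was 0.83 (standard error 0.13, adjusted p = 0.00197 from limma) and 0.86 without GFP replicate 3 (adjusted p = 0.00348), and Oas1a was called under every alternative and every leave-out. A further feature that holds Oas1a is shared with other genes and was not used. The other family members gave smaller differences: Oasl2 0.57 (adjusted p = 0.0803), Oasl1 0.22 (0.211), Oas2 0.18 (0.366) and Oas3 0.15 (0.492). Without GFP replicate 3, Oasl1 was at 0.17 (adjusted p = 0.351), Oas2 at 0.23 (0.211) and Oas3 at 0.06 (0.751). Oasl2 read 6.59, 6.92, 6.92, 7.25 and 6.46 in Phf2 livers, against 5.75, 6.12, 6.80, 6.22 and 6.43 in GFP livers. Its groups overlap only through GFP replicate 3, and it was called without that array (0.70, adjusted p = 0.0223) and also without Phf2 replicate 5 (0.66, adjusted p = 0.0462). Oas3 and Oasl1 ran the other way in GFP replicate 3, which was the lowest GFP array for both, at 4.14 and 6.40.

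Bst2, also called tetherin, holds budding virus particles at the cell surface. It read 9.41, 9.58, 9.80, 9.56 and 9.44 in Phf2 livers, against 9.23, 9.21, 9.28, 9.02 and 9.36 in GFP livers. The groups do not overlap, with GFP replicate 5 within 0.1 of the lowest Phf2 liver, and GFP replicate 3 was within the range of the other GFP arrays. The log2 fold change of 0.34 (adjusted p = 0.0275 from limma, standard error 0.09) was the smallest of the 5 that were called. It was 0.35 without GFP replicate 3 (adjusted p = 0.0386), and the call was lost, at an adjusted p of 0.0659 or less, without any 1 of Phf2 replicates 2, 3 and 4 or GFP replicates 1, 2 and 4.

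Trim30a, a TRIM protein that damps Toll-like receptor signalling in mice, read 8.75, 8.79, 8.72, 9.10 and 8.40 in Phf2 livers, against 7.59, 7.83, 8.81, 7.92 and 8.14 in GFP livers. Only GFP replicate 3 reached the Phf2 range, where it exceeded 4 of the 5 Phf2 livers. Its log2 fold change was 0.69 (standard error 0.20, adjusted p = 0.0439 from limma) with all arrays and 0.88 (standard error 0.14, adjusted p = 0.00235) without GFP replicate 3. Beside that leave-out the gene stayed called only without Phf2 replicate 5, and the adjusted p reached 0.115 in the others. Xaf1, a pro-apoptotic partner of the caspase inhibitor Xiap, read 6.80, 6.74, 6.61, 6.90 and 6.69 in Phf2 livers, against 5.97, 6.19, 6.87, 5.93 and 6.14 in GFP livers. GFP replicate 3 again lay inside the Phf2 range and the other GFP livers lay below it. On the log2 scale the change was 0.53 (standard error 0.15, adjusted p = 0.0452) with all arrays and 0.69 (standard error 0.08, adjusted p = 0.000421) without GFP replicate 3, which was the only leave-out that kept the call (adjusted p up to 0.113 in the others).

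Rtp4 and Parp14 were not called with all arrays. Rtp4, a chaperone of membrane receptors that also restrains viral replication, read 9.12, 8.84, 9.05, 9.28 and 9.26 in Phf2 livers, against 8.02, 8.42, 9.63, 8.38 and 8.72 in GFP livers. GFP replicate 3 was the highest of all 10 arrays and the other GFP livers lay below every Phf2 liver. Its log2 fold change was 0.48 (standard error 0.23, adjusted p = 0.261) with all arrays and 0.72 (standard error 0.13, adjusted p = 0.00618) without GFP replicate 3. Parp14, an ADP-ribosyltransferase of macrophages and other cells, read 7.65, 7.62, 7.57, 7.79 and 7.67 in Phf2 livers, against 6.99, 7.34, 8.35, 7.31 and 7.29 in GFP livers. Again 1 GFP liver stood above all the Phf2 livers and 4 below them, and the log2 fold change was 0.20 (adjusted p = 0.614) with all arrays and 0.43 (adjusted p = 0.00822) without GFP replicate 3. Rsad2 (viperin), which makes a chain-terminating nucleotide, and its neighbour Cmpk2, a mitochondrial nucleotide kinase, had log2 fold changes of 0.44 (adjusted p = 0.170) and 0.30 (adjusted p = 0.241) with overlapping groups, and neither was called without GFP replicate 3 (0.54, adjusted p = 0.0972, and 0.40, adjusted p = 0.0709).

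The Ifit proteins bind viral RNA or block its translation. Ifit2 read 5.65, 5.55, 6.12, 6.35 and 5.55 in Phf2 livers, against 4.84, 5.00, 6.02, 5.04 and 5.42 in GFP livers. Phf2 replicates 3 and 4 were the highest of all arrays, GFP replicate 3 came next, and the other GFP livers were lowest. Its log2 fold change was 0.58 (adjusted p = 0.136) with all arrays and 0.77 (adjusted p = 0.0193) without GFP replicate 3. Ifit3 read 8.61, 8.36, 8.56, 8.84 and 8.53 in Phf2 livers, against 7.11, 8.28, 8.61, 8.22 and 8.20 in GFP livers, where GFP replicate 1 was more than 1 log2 unit below the next array. The log2 fold change of 0.50 was not called (adjusted p = 0.206), nor was that of 0.63 without GFP replicate 3 (adjusted p = 0.0937). Ifit1 ranged from 6.27 to 6.74 in Phf2 livers and from 5.38 to 7.02 in GFP livers, with GFP replicate 3 highest and GFP replicate 1 lowest of all 10 arrays (log2 fold change 0.18, adjusted p = 0.736, and 0.37, adjusted p = 0.289, without GFP replicate 3).

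The Mx genes, dynamin-like GTPases that trap viral nucleocapsids, were not called. Mx1, which is defective in C57BL/6 mice, ranged from 4.02 to 4.18 in Phf2 livers and from 4.13 to 4.39 in GFP livers, at percentile 23.6 of mean level, with a log2 fold change of -0.10 (adjusted p = 0.414), and -0.06 without GFP replicate 3 (adjusted p = 0.611). Mx2 ranged from 4.64 to 5.43 in Phf2 livers and from 4.84 to 5.67 in GFP livers (log2 fold change -0.03, adjusted p = 0.951, and 0.09, adjusted p = 0.781, without GFP replicate 3). Of the sensors of nucleic acids, the RNA helicases Rigi, Ifih1 and Dhx58 had log2 fold changes of -0.02, 0.09 and 0.01 (adjusted p = 0.938, 0.698 and 0.974) with standard errors of 0.11 to 0.12. In all 3 the groups overlapped, and without GFP replicate 3 the values were 0.04, 0.13 and 0.05 (adjusted p = 0.861, 0.554 and 0.850). Zbp1, a sensor of Z-form nucleic acid that can start necroptosis, was spread more widely in the GFP group. It read 7.45, 7.37, 7.22, 7.32 and 7.15 in Phf2 livers, against 6.33, 6.99, 8.02, 6.59 and 6.93 in GFP livers, so that GFP replicate 3 was above and the other GFP livers below every Phf2 liver. Its log2 fold change was 0.33 (adjusted p = 0.493) with all arrays and 0.59 (adjusted p = 0.0139) without GFP replicate 3.

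None of the 5 transcription factors was called with all arrays or without GFP replicate 3. Irf1, which interferon-γ induces, read 6.46, 6.65, 6.86, 6.75 and 6.42 in Phf2 livers, against 6.28, 6.67, 7.47, 6.19 and 6.14 in GFP livers. GFP replicate 3 was the highest of all arrays by 0.6 or more, and the log2 fold change was 0.08 (adjusted p = 0.888) and 0.31 without that array (adjusted p = 0.162). Irf7, which amplifies interferon-α production, had a log2 fold change of 0.24 (adjusted p = 0.360), and 0.34 without GFP replicate 3 (adjusted p = 0.104). Irf8, a factor of myeloid cells, had one of 0.20 (adjusted p = 0.165) and was called only without Phf2 replicate 1 (0.26, adjusted p = 0.0346), its lowest Phf2 array at 5.54. Without GFP replicate 3 it was at 0.19 (adjusted p = 0.234). Irf9 and Stat2, which act at the ISRE, had log2 fold changes of -0.09 (adjusted p = 0.651) and -0.05 (adjusted p = 0.867), and of -0.01 (adjusted p = 0.966) and 0.06 (adjusted p = 0.814) without GFP replicate 3.

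The GTPases held the widest gap between GFP replicate 3 and the rest. Gbp3 read 6.39, 6.44, 6.85, 6.59 and 6.50 in Phf2 livers, against 5.31, 5.67, 7.01, 5.57 and 5.90 in GFP livers. GFP replicate 3 was above every Phf2 liver and the other GFP livers were below all of them. On the log2 scale the fold change was 0.66 (standard error 0.25, adjusted p = 0.135 from limma) with all arrays and 0.94 (standard error 0.12, adjusted p = 0.000883) without GFP replicate 3. Gbp7 showed the same arrangement, at 7.21, 7.24, 7.58, 7.39 and 7.22 in Phf2 livers, against 6.39, 6.47, 8.13, 6.56 and 6.81 in GFP livers. Its log2 fold change was 0.45 (standard error 0.27, adjusted p = 0.371) with all arrays and 0.77 (standard error 0.10, adjusted p = 0.0010) without GFP replicate 3.

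Iigp1 and Irgm1 are the IRG members measured, an effector GTPase that loads onto vacuoles and a regulator that holds effectors inactive on the cell's own membranes. Iigp1 read 11.21, 10.94, 10.99, 10.79 and 11.06 in Phf2 livers, against 10.33, 10.52, 11.83, 10.61 and 10.51 in GFP livers. GFP replicate 3 exceeded the highest Phf2 liver by more than 0.6, and the log2 fold change was 0.24 (standard error 0.23, adjusted p = 0.625) with all arrays and 0.50 (standard error 0.09, adjusted p = 0.00552) without it. Irgm1 read 8.03, 7.52, 7.90, 7.69 and 7.73 in Phf2 livers, against 7.16, 7.45, 8.98, 7.56 and 7.80 in GFP livers. Here GFP replicates 4 and 5 lay within the Phf2 range and GFP replicate 3 above it, and the gene was not called with all arrays (-0.02, adjusted p = 0.982) or without GFP replicate 3 (0.28, adjusted p = 0.234). Gbp3, Gbp7 and Iigp1 were called in none of the other 9 leave-outs. The 6 shared features that hold an unmeasured member had log2 fold changes from 0.05 to 1.23, and no gene can be named from them. They were called in neither direction in a fit over all features. That fit also lost the calls of 3 tested members, so it does not show that the unmeasured members were unchanged.

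The same array stood out when the members of a class were averaged. The 4 GTPases averaged 8.21, 8.04, 8.33, 8.11 and 8.13 in Phf2 livers, against 7.30, 7.53, 8.98, 7.58 and 7.76 in GFP livers. The 22 type I genes averaged 6.86, 6.73, 6.86, 7.06 and 6.79 in Phf2 livers, against 6.15, 6.46, 6.93, 6.38 and 6.58 in GFP livers. In both classes GFP replicate 3 reached or passed the Phf2 range and the other 4 GFP livers lay below it. The 5 transcription factors averaged from 6.53 to 6.76 in Phf2 livers, and GFP replicate 3 was the highest of all arrays, with the other GFP livers between 6.34 and 6.57.

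**Figure D4:**
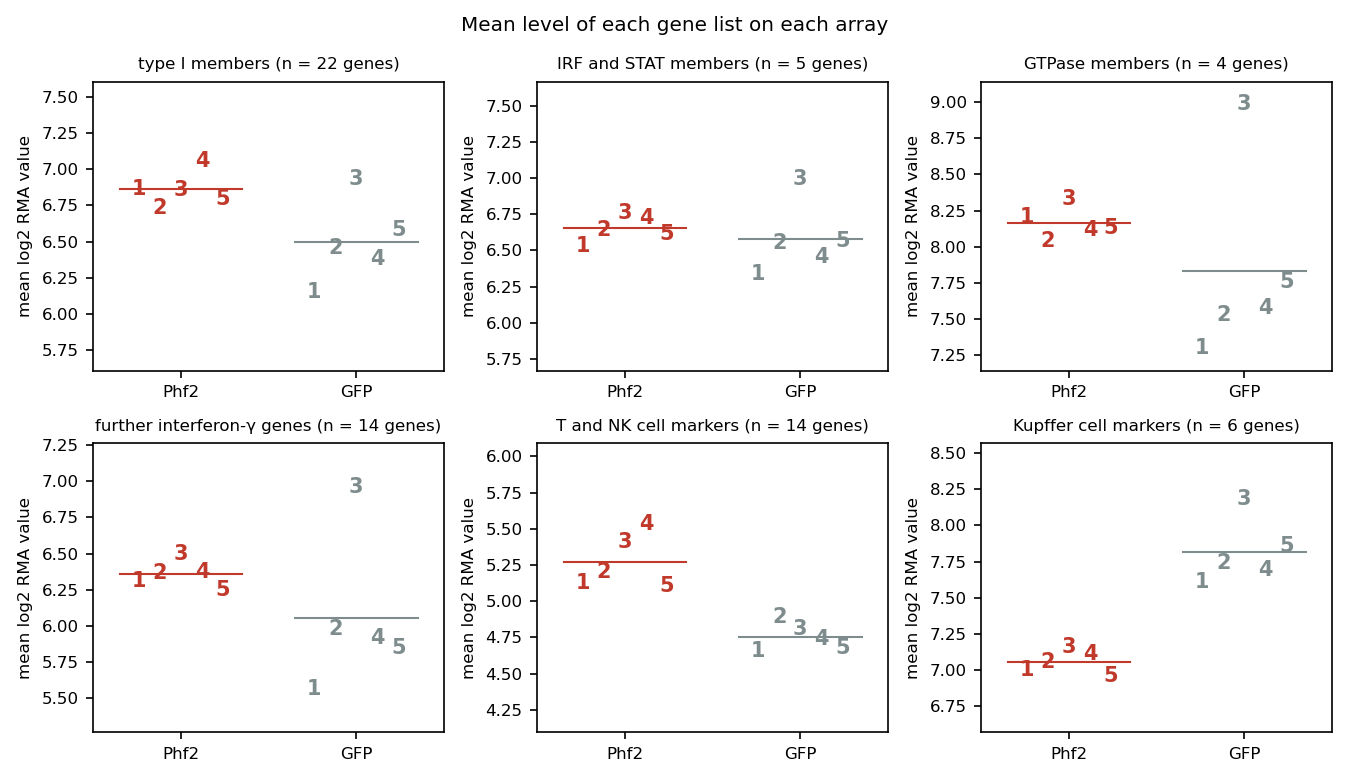
Mean log2 RMA value (vertical axis) of 6 gene lists on each array, with Phf2 arrays in red on the left and GFP arrays in grey on the right, numbers for the replicate and lines for the group mean. GFP replicate 3 is the highest array for the GTPases (8.98), the transcription factors, the further interferon-γ genes (6.96) and the Kupffer cell markers (8.18), and lies among the other GFP arrays for the T and NK cell markers (4.81).

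The interferons themselves showed no call. Of 20 interferon genes, 16 were tested and none was called in either direction with all arrays or in any leave-out, and the smallest p-values belonged to Ifna2 (log2 fold change -0.15, adjusted p = 0.451) and Ifnk (-0.22, adjusted p = 0.452). Ifng, the gene of interferon-γ, read 4.73, 4.80, 4.77, 4.77 and 5.06 in Phf2 livers, against 4.84, 4.84, 4.68, 5.01 and 4.78 in GFP livers, at percentile 37.6 of mean level. GFP replicate 3 had the lowest Ifng value of all 10 arrays, and the log2 fold change was below 0.01 in size (adjusted p = 0.985). Interferon genes are often too low in whole tissue to be read by an array, and their median level here was at percentile 39.9 of the genes tested.

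Over all genes, 5.43% were called higher and 4.24% lower, so 1 call in a list as short as the next ones does not set that list apart. Of 6 interferon receptor genes, 1 was called higher and 0 lower. This was Il10rb, a chain shared by the receptors of interferon-λ and interleukin-10, which read 5.86, 6.04, 6.41, 6.11 and 6.29 in Phf2 livers, against 5.35, 5.38, 5.53, 5.47 and 5.66 in GFP livers. The groups did not overlap, and Phf2 livers exceeded GFP livers by 0.66 on the log2 scale (adjusted p = 0.00148 from limma, standard error 0.10), a call kept in every leave-out. Of 9 genes of JAK-STAT signalling and its inhibitors, 0 were higher and 1 was lower. Stat3, which carries signals of the interleukin-6 family, fell by 0.27 on the log2 scale (adjusted p = 0.0448), a call that was kept only without GFP replicate 1 or GFP replicate 5 and lost in the other 8 leave-outs (adjusted p up to 0.0997, and 0.0790 without GFP replicate 3). Of 14 genes that sense nucleic acids or relay the signal upstream of interferon, 1 was higher and 0 were lower. Sting1, the adaptor of cytosolic DNA sensing, read 5.62, 5.61, 6.07, 6.03 and 5.76 in Phf2 livers, against 5.02, 4.94, 5.37, 5.46 and 5.39 in GFP livers. The groups did not overlap (log2 fold change 0.58, standard error 0.13, adjusted p = 0.0114), and the gene was called in every leave-out.

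A wider list of 39 tested interferon-stimulated genes held 7 called higher and 1 lower, against 5.43% and 4.24% of all genes. Its median log2 fold change was 0.18. The 4 with the smallest p were Ifi27, Lgals3bp, Slfn9 and Slfn8, and all 4 were called higher in every leave-out. Ifi27, a small protein of mitochondrial and nuclear membranes, read 10.56, 10.44, 10.51, 10.49 and 10.59 in Phf2 livers, against 9.51, 9.53, 9.62, 9.48 and 9.84 in GFP livers. Its groups lay apart, with GFP replicate 3 within the range of the other GFP arrays, and the log2 fold change was 0.92 (standard error 0.07, adjusted p = 1.55e-05 from limma). Lgals3bp, a secreted glycoprotein that binds galectins, had a log2 fold change of 1.05 (adjusted p = 7.55e-05), again without overlap of the groups. Slfn9 and Slfn8, of the Schlafen family, had values of 0.51 (adjusted p = 0.0118) and 0.74 (adjusted p = 0.0181). Helz2, a helicase that coactivates nuclear receptors, fell by 0.33 (adjusted p = 0.0415) and was not called without GFP replicate 3 (adjusted p = 0.0823) or in 6 other leave-outs. The list held 11 higher and 0 lower genes without GFP replicate 3. It held 4 higher genes without Phf2 replicate 3, Phf2 replicate 4 or GFP replicate 4.

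A second list of 14 tested interferon-γ GTPases and responders held genes that varied as Gbp3 and Gbp7 did and genes that did not. None was called with all arrays (median log2 fold change 0.27), 7 were called higher without GFP replicate 3 (median 0.44), and none was called in any other leave-out. With all arrays 5 of the 14 had a negative log2 fold change (Gbp2b, Gbp11, Cxcl11, Ido1 and Nos2, named after their values were seen), from -0.17 to -0.01. Nos2, the inducible nitric oxide synthase, lay lower in all 5 Phf2 livers, at 4.42 to 4.67, than in all 5 GFP livers, at 4.68 to 5.00, and was not called (-0.17, adjusted p = 0.212, and -0.19, adjusted p = 0.195, without GFP replicate 3). Gbp9 read 7.61, 7.47, 7.71, 7.83 and 7.49 in Phf2 livers, against 6.35, 6.91, 7.97, 6.79 and 6.81 in GFP livers. Its log2 fold change was 0.66 (adjusted p = 0.102) with all arrays and 0.91 (adjusted p = 0.000833) without GFP replicate 3. Cxcl9, a chemokine that draws T cells, read 8.52, 8.75, 9.25, 8.84 and 8.47 in Phf2 livers, against 6.52, 7.70, 9.36, 7.46 and 7.49 in GFP livers. In both genes GFP replicate 3 was the highest of all 10 arrays and the other GFP livers lay below every Phf2 liver. The log2 fold change of Cxcl9 was 1.06 (adjusted p = 0.124) with all arrays and 1.47 (adjusted p = 0.00219) without GFP replicate 3.

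Markers of cells that make or answer interferon also differed between the groups. Of 14 markers of T and NK cells, 7 were called higher and 0 lower, against 5.43% and 4.24% of all genes. Among them were Gzma (log2 fold change 1.24) and Cd3e (0.64), a granzyme and a chain of the T cell receptor complex. Between 5 and 7 were called in the leave-outs. Not called with all arrays were Cd247, Cd4, Ncr1, Klrb1c, Eomes, Gzmb and Prf1. The pooled count therefore does not show a rise of the NK cell markers Ncr1 and Klrb1c. The mean level of the 14 markers reached 5.53 in Phf2 livers, all of which lay above the GFP livers at 4.65 to 4.89, and GFP replicate 3 stood among these at 4.81. Of 9 markers of macrophages and monocytes, 3 were higher, Mpeg1 (0.93), Ccr2 (0.69) and Lyz2 (0.64), and 0 were lower, against 4 higher and 0 lower without GFP replicate 3 and 2 higher without any 1 of Phf2 replicates 2, 3 and 4 or GFP replicates 1, 2 and 4. Their mean level was 7.11 to 7.56 in Phf2 livers and 6.67 to 7.33 in GFP livers, and GFP replicate 3 was the GFP array at 7.33, the highest GFP array for 8 of the 9 genes. Lyz2 was not called without any 1 of Phf2 replicates 2, 3 and 4 or GFP replicates 1, 2 and 4 (adjusted p up to 0.0880).

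Of 6 markers of resident Kupffer cells, 0 were higher and 4 were lower, with 3 to 5 called lower in the leave-outs. The lower genes were Cd163, which fell by 1.89, Timd4, which fell by 1.59, Clec4f, which fell by 0.54, and Marco, which fell by 0.37. Marco was not called in 7 of the leave-outs. Cd5l had a log2 fold change of 0.24 and was called higher only without GFP replicate 3 (adjusted p = 0.0487 from limma). The mean level of the 6 markers was 6.96 to 7.16 in Phf2 livers and 7.61 to 8.18 in GFP livers, where GFP replicate 3 was again the highest. Of 6 markers of conventional dendritic cells, 2 were higher, Itgax (0.66) and Clec9a (0.52), and 0 were lower, and Itgax was called in every leave-out and Clec9a only without Phf2 replicate 1 or GFP replicate 3. Plasmacytoid dendritic cells, the foremost makers of interferon-α, had 0 of 5 markers called, B and plasma cells 0 of 6 and neutrophils 0 of 8, and endothelial cells had 1 of 6, Lyve1, higher, which was not called without any 1 of Phf2 replicates 2, 3 and 4 or GFP replicate 1 (adjusted p up to 0.0604). None of 7 genes of the exocrine pancreas was called, although their mean level ran from 6.12 to 10.8 in Phf2 livers and from 6.46 to 12.3 in GFP livers, where GFP replicate 1 was highest and GFP replicate 3 stood at 7.33. The part of these cells in the levels of the interferon-stimulated genes was not tested.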

How the data were processed

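Liver RNA of 5 Phf2 and 5 GFP mice was measured on Affymetrix Gene ST arrays, and samples were grouped and numbered by their titles in the labels. The authors normalized the arrays by RMA in Bioconductor, ran controls and statistics in Partek, and deposited log2 values for 35556 features. Tool versions and the genome build were not given in the sources used here. A human array is named in the methods, whereas the feature numbers belong to a mouse array, and the RNA kit differs between methods and labels. Of the features, 21789 had 1 gene symbol, 1621 several and 12146 none. The 19938 genes with a feature of their own were fitted with limma (version 3.58.1, R 4.3.3) through their brightest feature, with Benjamini-Hochberg adjustment over all of them and a threshold of 0.05. The fit was first tested on simulated data. Where all 5 arrays of a group lie on one side, the smallest p of a two-sided exact permutation test is 0.00794. Each sample is labelled a biological replicate and comes from its own mouse.

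All 38 members are named by role. Of the wider pathway lists up to 4 called genes with the smallest p are named, or 2 where none was called, and up to 3 called genes of each marker list. Marco, Cd5l and the uncalled T and NK cell markers were named besides, after their values were seen. Members and lists were chosen with earlier results of these data known. The alternatives were the methods' t-test per gene (Benjamini-Hochberg adjusted), a robust prior with an intensity trend, weights per array, leaving out the dimmest 25% of genes, quantile normalization, median centring, all features, the mean of a gene's features, a replicate block, each array left out, and the study's thresholds (1.5-fold with an unadjusted p under 0.05). Promoter windows came from RefSeq (GRCm38.p6).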

Additional observations from a re-analysis of the deposited data

Results flagged for a closer look

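Each gene was checked in each group for an array set apart from the other 4 by a gap of more than 0.71 of the group's range. This marked 7 of 62 groups, where chance marks about 1 in 20, and 4 of the 7 were GFP replicate 3 as the highest GFP array. These were Iigp1 at 11.83, Gbp7 at 8.13, Parp14 at 8.35 and Xaf1 at 6.87. Over all genes, GFP replicate 3 was set apart in this way in 0.577%, against 12.9% of the tested members. Mx1 had Phf2 replicate 1 set apart as the lowest Phf2 array, at 4.02. Ifit3 had GFP replicate 1 set apart as the lowest GFP array, at 7.11, and Irf8 had GFP replicate 4 set apart as the highest, at 5.75. The RNA quality of single arrays was not analysed here.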

How the results depend on the processing

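Usp18 and Oas1a were called higher under every alternative and leave-out, and no member was called lower under any. The members called higher were 5 in the fit reported, 2 under the methods' t-test, under median centring and over all features, 4 under the study's thresholds, and between 2 and 13 with 1 array left out, the 13 without GFP replicate 3. Array weights added 1 call to those of the fit reported, and the robust prior with an intensity trend lost 1. With the replicate block 3 members were called higher (Usp18, Oas1a and Gbp3). Same-numbered arrays did not deviate together (correlations -0.291 to -0.0421, 0 of the 10 arrays closest to its own number). This check gave no sign that the numbers pair the livers, and it cannot exclude that they do. All genes called higher and lower numbered 1083 and 846 in the fit reported, 694 and 616 under the t-test, 475 and 231 under the study's thresholds, and 727 to 1220 and 571 to 912 with 1 array left out. The class medians kept their direction, except that of the transcription factors (-0.01 to 0.19). Reversed signs were found only in uncalled members. Dhx58 was at -0.00292 with array weights, -0.00941 with quantile normalization and -0.00855 with median centring, Rigi at 0.0104 and Irgm1 at 0.0482 with array weights. With 1 array left out, log2 fold changes ran from -0.0623 to 0.0999 in Dhx58, -0.109 to 0.0408 in Rigi, -0.174 to 0.279 in Irgm1, -0.113 to 0.0963 in Mx2, -0.0261 to 0.306 in Irf1, -0.133 to 0.0550 in Stat2 and -0.0414 to 0.370 in Ifit1. Mx1 has no value where dim genes were left out. The causes were not tested. Precision is limited by the number of arrays, and low signal may understate changes of dim genes such as Mx1 and the interferons.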
